A study of Mus musculus with 12 samples.

Results

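The genes described here are those that could activate or clear a pesticide: the cytochrome P450s (Cyp), their reductase Por, the glutathione transferases (Gst and Mgst), the glucuronosyltransferases (Ugt), the sulfotransferases (Sult1), the epoxide hydrolases (Ephx) and the receptors that control many of them. A row of the expression table was taken when its gene symbol was Cyp followed by a digit (without Cyp51), began with Gst and a class letter (a, k, m, o, p, t or z), Mgst, Ugt1, Ugt2, Sult1 or Ephx, or was Por, Ahr, Arnt, Nr1i2 or Nr1i3. This gave 48 of 14775 rows, chosen by name and not by any measured value. The cells were TMCON, an immortalized line of murine brown adipocytes, sequenced in 6 libraries per group at day 9 of differentiation. They had been kept for 4 h in buffer that held either 1 pM chlorpyrifos (CPF), an organophosphate insecticide, or only the vehicle, dimethyl sulfoxide. The methods describe lines from the brown fat of pups of FVB/N mice and of a UCP1 reporter mouse, immortalized with SV40 by retrovirus, and do not say which of them TMCON is. The lines had been selected with puromycin and treated with ciprofloxacin when they were made, and were grown with an antibiotic-antimycotic solution. Both groups had been induced with IBMX, indomethacin, dexamethasone, T3 and insulin and then kept in T3 and insulin. The sources do not say whether the replicates were separate cultures, and the spread behind each p-value may therefore be only technical.

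Foreign compounds are handled in steps. P450 enzymes in the membrane of the endoplasmic reticulum take electrons from NADPH through Por and oxidize the compound, and in the liver they convert CPF either to its oxon, the form that inhibits cholinesterases, or to products that no longer do so. Transferases then join glutathione, glucuronic acid or sulfate to such products, epoxide hydrolases open reactive epoxides, and pumps export the conjugates. The aryl hydrocarbon receptor (AHR) with its partner ARNT, and the nuclear receptors CAR (Nr1i3) and PXR (Nr1i2), switch on many of these genes when a ligand binds. In fat cells several of the same enzymes act on the cell's own sterols, fatty acid epoxides, retinoids and lipid aldehydes.

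Libraries held 7875502 to 14166615 reads in genes. Vehicle replicate 2 and CPF replicate 1 stood apart from the other 10 libraries on the first principal component (29.1% of the variance), with scores of 31.54 and 33.02 against −13.71 to 6.12. All 12 adipocyte markers looked for had a row, Ucp1 and Adipoq among them, and their summed normalized count was 55770 to 68506 in vehicle and 43119 to 76501 in CPF libraries, lowest in CPF replicate 1. The 9 preadipocyte and fibroblast markers with a row, of 10 looked for, summed to 40045 to 76171 in vehicle, highest in vehicle replicate 2. In CPF they summed to 36921 to 49894, highest in CPF replicate 1. Most of that sum was Col1a1 and Col3a1, at 37993 and 26917 in vehicle replicate 2 and 22751 and 17994 in CPF replicate 1. Of the other markers, Pdgfra, Pdgfrb, Ly6a and Dpt were also highest of their groups in both of these libraries. Thy1 was highest of CPF in CPF replicate 1 but not highest of vehicle in vehicle replicate 2. Dlk1 was lowest of vehicle in vehicle replicate 2 (315.8), and Cd34 lowest of CPF in CPF replicate 1 (6.263). Of 10 hepatocyte markers 1 had a row (Ahsg, summing to 5.483 to 32.09), and of 10 leukocyte and endothelial markers 2 did (101.4 to 162.2).

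Some of these enzymes are copies of each other, which limits what a count can say. Gstp1 and Gstp2, neighboring pi-class transferase genes, differ at 12 of 630 coding bases (98.1% identity), and the processed pseudogene Gstp-ps differs from Gstp2 at 5 and from Gstp1 at 15 of the 628 coding bases it holds. The 60 bases below are the stretch of the spliced coding sequence in which the 3 copies differ most. They are shown because, within the coding part, only such positions let a read be given to 1 copy. They are coding bases 3 to 62 of Gstp1 and Gstp2 and the matching bases of Gstp-ps, 5′ to 3′, and the capitals mark the 6 positions at which the copies are not all the same.
Gstp1 (chr19:4037372-4037619, GRCm38, minus strand, 1 intron left out): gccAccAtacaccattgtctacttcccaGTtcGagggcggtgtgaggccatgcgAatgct
Gstp2 (chr19:4041666-4041937, minus strand, 1 intron left out): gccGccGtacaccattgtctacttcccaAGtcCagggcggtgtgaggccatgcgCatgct
Gstp-ps (chr1:192074391-192074450, minus strand): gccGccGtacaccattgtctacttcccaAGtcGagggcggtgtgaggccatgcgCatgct
In this window Gstp1 differs from Gstp2 at 6 bases and from Gstp-ps at 5, and Gstp2 differs from Gstp-ps at 1. Over whole transcripts, 33.7% of the 50-base stretches of Gstp1, 54.3% of those of Gstp2 and 71.1% of those of Gstp-ps also occur in a transcript of another gene.

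The Ugt1a rows overlap in another way, since each Ugt1a transcript joins a first exon of its own to exons that all share. The last 737 of 1593 coding bases (46.3%) are the same in Ugt1a6a, Ugt1a6b and Ugt1a7c. The next lines show the 30 bases before and the 30 after that junction (coding bases 827 to 886, chr1, GRCm38, plus strand, with the intron left out), with the shared part in capitals.
Ugt1a6a (chr1:88139300-88215071): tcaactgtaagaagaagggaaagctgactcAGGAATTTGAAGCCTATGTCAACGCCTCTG
Ugt1a6b (chr1:88107768-88215071): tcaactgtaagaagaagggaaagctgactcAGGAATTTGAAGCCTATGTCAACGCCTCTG
Ugt1a7c (chr1:88095947-88215071): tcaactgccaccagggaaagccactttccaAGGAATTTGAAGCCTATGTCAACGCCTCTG
Ugt1a6a and Ugt1a6b are the same on both sides of the junction here, whereas Ugt1a7c has its own bases before it. The counts of the Gstp and Ugt1a rows are therefore uncertain, as are those of Gstm2-ps1, of which 46.9% of the 50-base stretches occur in another gene, and less so of Gstm1 (18.9%), Cyp4f16 (17.4%) and Gstt3 (12.5%).

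Which of the genes are expressed was asked first. The annotation (GENCODE M21) holds 158 protein-coding genes that meet the rule, and 46 of them had a row. The other 2 rows are the pseudogenes Gstp-ps and Gstm2-ps1. A mean of at least 10 normalized counts over the 12 libraries was reached by 44 of the 48 rows, one of at least 100 by 27 and one of at least 1000 by 8, and 41 were at 10 or more in every vehicle library. By family, rows with a mean of at least 10 were 18 of 20 P450s, 15 of 16 soluble glutathione transferases, all 3 microsomal ones, 2 of 3 glucuronosyltransferases, the 1 sulfotransferase, both epoxide hydrolases, Por, Ahr and Arnt. The rows therefore cover the families unevenly. They hold 20 of 99 annotated P450 genes, 3 of 19 glucuronosyltransferases and 1 of 6 sulfotransferases, but 14 of 22 soluble and 3 of 3 microsomal glutathione transferases. Cyp1a1 and Cyp1a2, the best known AHR targets, Cyp2b10 and the Cyp3a genes, which CAR and PXR control in liver, Cyp2e1, Ugt1a1, the Ugt2 genes, Gsta1 to Gsta3, Gstk1, Ephx3, Ephx4, Nr1i2 and Nr1i3 were not analysed here.

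Levels were compared between genes per kilobase of exon, as the mean normalized count of the 6 vehicle libraries divided by the summed exon length. Mgst1, a glutathione transferase and peroxidase of the endoplasmic reticulum and outer mitochondrial membrane, was highest, at 1760 normalized counts per kb (1432 to 1888 over the libraries), above 98.6% of all genes in the table. Gstm1, a mu-class transferase, followed at 1111 (1036 to 1210), then Ephx1, the microsomal epoxide hydrolase, at 879.9 (768.8 to 997.4), Por at 833 (769.9 to 883.6) and Cyp1b1 at 828.4 (705.4 to 1066). The range of Gstm1 overlapped neither that of Mgst1 nor that of Ephx1, while those of Ephx1, Por and Cyp1b1 overlapped. The same 5 genes were the highest when the length of the longest transcript was used, and without division by length Cyp1b1 came first and Arnt joined the first 5 in place of Gstm1.

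A second tier, from 518.7 to 431.9 normalized counts per kb, held Gsto1, Ephx2, Mgst3, Gstp1 and Gstm2, each overlapping its neighbor in range. Gsto1 is an omega-class transferase with thioltransferase activity, Ephx2 the soluble epoxide hydrolase that opens fatty acid epoxides, and Mgst3 a membrane-bound relative of Mgst1. Gstp-ps was next at 242.6, which is 1.78-fold below Gstm2, and Arnt at 219.4. Arnt stood 3.3-fold above its partner Ahr, which was at 66.48 per kb (58.28 to 95.18), above 53.9% of all genes. The ratio was 5.5 by the length of the longest transcript and 4.29 without division by length. Gstp-ps had 153.1 normalized counts against 20.79 for Gstp2, the copy it is closest to, and how reads were divided between these copies was not tested.

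**Figure D1:**
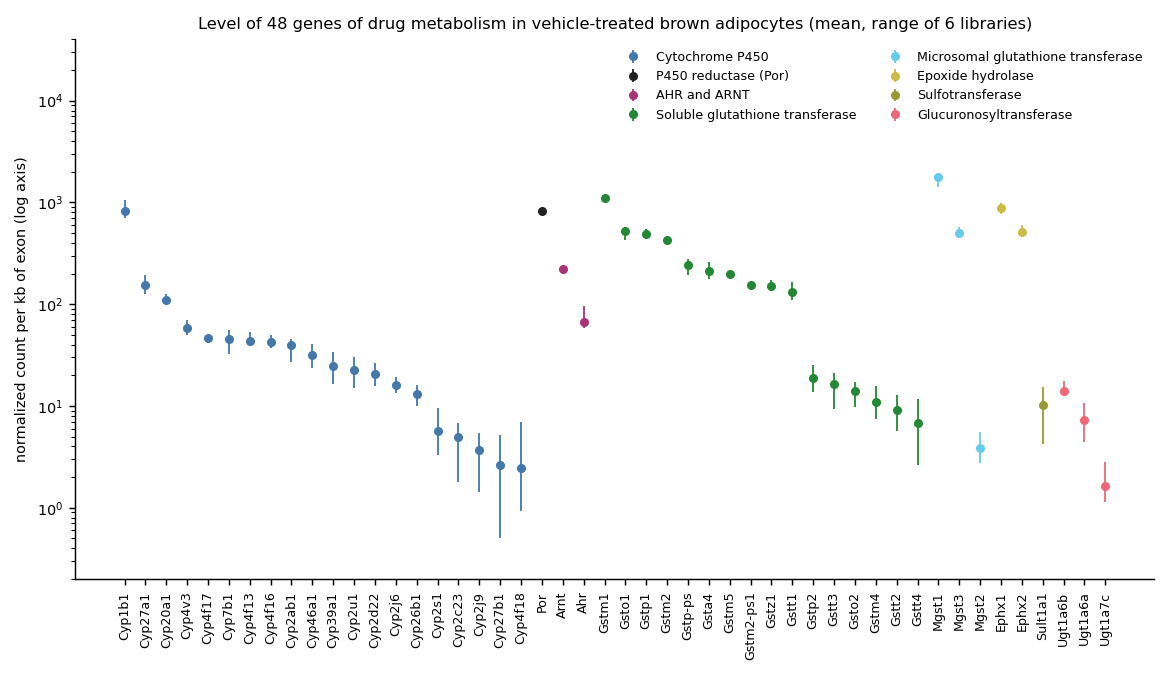
Mean normalized count per kb of exon (vertical, log axis) of the 48 rows in the 6 vehicle libraries, grouped by family and colored by it, with bars from the lowest to the highest library. Mgst1 is the highest at 1760 and Ugt1a7c the lowest at 1.642, and among the P450s Cyp1b1 at 828.4 stands above Cyp27a1 at 154.5.

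Among the P450s, 1 gene held most of the signal. Cyp1b1, an AHR target that hydroxylates estrogens and polycyclic aromatic hydrocarbons, accounted for 54.6% of the summed P450 level per kb (1518) and for 70% of the P450 normalized counts. The sum of all other P450 rows was 689 per kb, below the 833 of the reductase Por that serves the microsomal ones. Next in order came Cyp27a1, the mitochondrial sterol hydroxylase, at 154.5 per kb, and Cyp20a1, whose substrate is unknown, at 110.5. Cyp4v3 and Cyp4f17, Cyp4f13 and Cyp4f16, of a family that hydroxylates fatty acids at the omega end, lay between 58.68 and 42.73 per kb, as did the oxysterol hydroxylase Cyp7b1 at 45.07. The remaining P450s, among them Cyp2ab1, Cyp46a1, Cyp2u1, Cyp2d22, Cyp2j6 and the retinoic acid hydroxylase Cyp26b1, were at 39.32 per kb or below. Cyp2s1, Cyp2c23 and Cyp2j9 were at 5.685, 4.962 and 3.688 per kb.

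Among the rows for conjugating enzymes, those for glutathione transfer held most of the signal. They were also the most numerous, with 19 rows against 3 for Ugt and 1 for Sult1. The Gst and Mgst rows summed to 5987 normalized counts per kb, the pseudogenes Gstp-ps (242.6) and Gstm2-ps1 (153.6) included. Sult1a1, the phenol sulfotransferase, was at 10.26 per kb (4.259 to 15.32). Ugt1a6b and Ugt1a6a, which glucuronidate phenols, were at 14.05 and 7.236 per kb. Of their exon bases 60.6% and 50.3% overlap other genes on the same strand, and how that affected their counts was not tested. In reads, Ugt1a6a had 16 to 42 and Sult1a1 5 to 24 per vehicle library, against 2246 to 4441 for Mgst1. Mgst2, which like Mgst3 belongs to the family of leukotriene-forming enzymes, was at 3.853 per kb, far below the other microsomal transferases.

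Below a mean of 10 were Cyp4f18, Cyp27b1 (the enzyme that makes active vitamin D), Gstt4 and Ugt1a7c, and these were left out of the limma fit. Without the filter on low values their adjusted p-values by limma were 0.643 to 0.955. Their highest values in any library were 12.84, 22.96, 11.54 and 15.49 normalized counts. Cyp4f18 had 2 to 10 reads per vehicle library and a value of 0 in CPF replicates 1 and 2, and was the only row with no read in a library.

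The comparison of CPF with vehicle asked whether 4 h at 1 pM changed any of these transcripts. No row passed. By limma, a linear model fitted to each of 13531 genes on log2(normalized count + 1), 0 of the 44 rows tested had a Benjamini-Hochberg adjusted p under 0.05, against 0% of all genes, and the lowest adjusted p was 0.605, of Ahr. Unadjusted, 3 rows were higher in CPF at p under 0.05, Gstm4, Mgst1 and Gstz1, where 2.77% of all genes were. Of these, Gstz1 lay at the threshold, with a p by limma that rounds to 0.05. One row, Ahr, was lower, where 4.55% of all genes were. On the recovered reads, edgeR called 0 of 44 rows, against 0% of all genes. DESeq2 called 0 of 48 rows, against 0.0406% of all genes. Cyp4f18, a row below the mean of 10, had an unadjusted p of 0.0158 by DESeq2 and no adjusted p from that tool. For 0 of the 44 rows did the 6 CPF libraries lie wholly above or below the 6 vehicle libraries, against 0.466% of all genes tested.

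The estimates leaned to higher values in CPF, with 31 of 44 positive (70.5%) and a median log2 fold change of 0.070, while 49.6% of all genes were positive and their median was −0.002. By family, 10 of 18 P450s, 12 of 15 soluble and 3 of 3 microsomal glutathione transferases and both epoxide hydrolases had positive estimates, with medians of 0.043, 0.091, 0.209 and 0.116. The share of all normalized counts in the 48 rows was 0.246 to 0.261% in vehicle and 0.256 to 0.267% in CPF libraries, so that the ranges overlapped. These are counts of estimates that did not pass the test. Cell type markers also differed in sign: 8 of 9 preadipocyte and fibroblast markers had negative estimates (median −0.163, and −0.089 without vehicle replicate 2 and CPF replicate 1), and 7 of 12 adipocyte markers had positive ones (median 0.040, and 0.147 without these libraries), with none called. Their part in the estimates of the 44 rows was not tested.

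**Figure D2:**
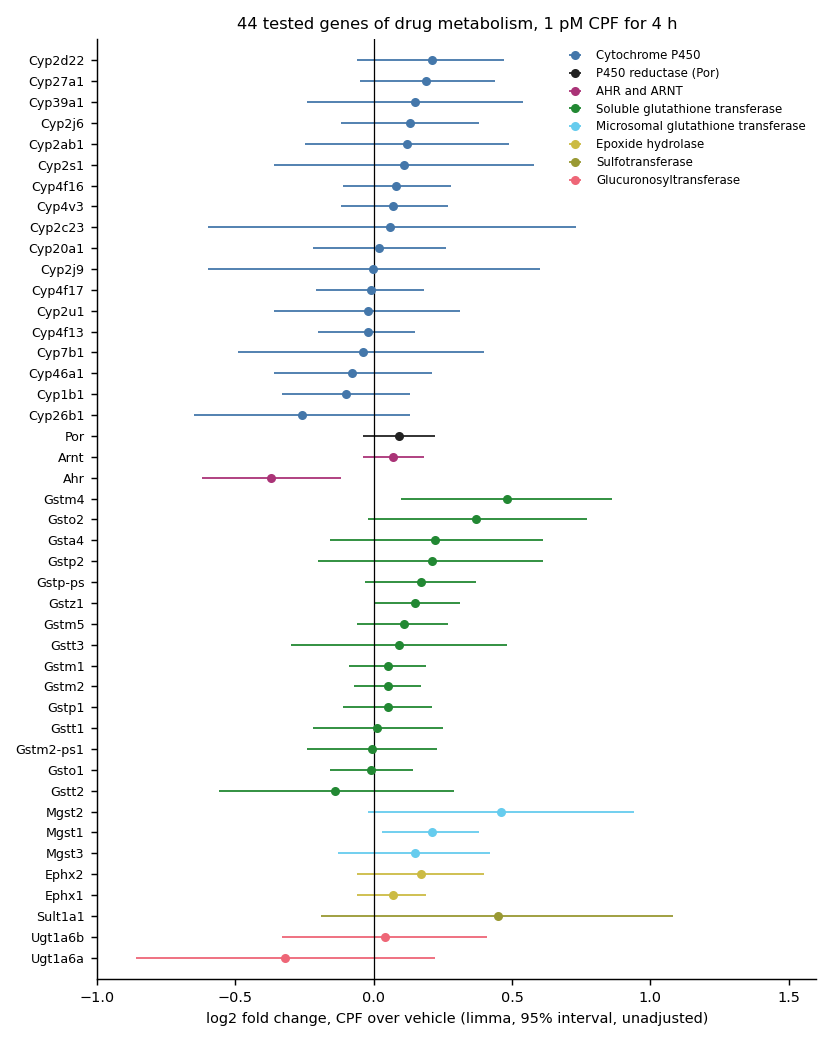
Log2 fold change of CPF over vehicle (horizontal, log2 scale, limma) for the 44 tested rows, grouped by family, with unadjusted 95% intervals, n = 6 libraries per group. Most points lie right of 0, and Ahr at −0.37 is the row whose interval lies wholly to the left.

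Of the receptors, Ahr had the smallest p of all rows. Its normalized counts ran from 359.2 to 586.6 (median 378.4) in vehicle and from 278.1 to 393.5 (median 299) in CPF. Every CPF library was below the mean of vehicle, 409.7, yet the groups overlapped, because CPF replicate 1 at 393.5 reached above vehicle replicates 1, 3, 5 and 6. The log2 fold change was −0.37 ± 0.12 (SE, n = 6 per group, interval −0.62 to −0.12, adjusted p = 0.605 by limma). The 2 libraries that stood apart were the highest in their groups for Ahr. They lay 0.68 (vehicle replicate 2) and 0.42 (CPF replicate 1) on the log2 scale above the median of the other libraries of the group. Both also had the highest preadipocyte and fibroblast sum of their groups, a sum that was mostly Col1a1 and Col3a1. Pdgfra, Pdgfrb, Ly6a and Dpt were likewise highest of their groups in both. Not every marker went with that sum: Dlk1 was lowest of vehicle in the first library and Cd34 lowest of CPF in the second. Without both libraries, the log2 fold change of Ahr was −0.33 ± 0.066 (n = 5 per group) and passed at an adjusted p of 0.0375, 1 of 44 rows where 0.4% of all genes passed. Without vehicle replicate 2 alone it was −0.26 (adjusted p = 0.817) and without CPF replicate 1 alone −0.44 (adjusted p = 0.0841). In replicates 1 to 3 alone it was −0.43, and in replicates 4 to 6 alone −0.31, neither past the threshold. In bulk RNA fewer cells of a type and less RNA per cell cannot be told apart, and the part of cell composition in this value was not tested.

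Arnt ran from 1599 to 1855 (median 1762) in vehicle and from 1720 to 1950 (median 1828) in CPF. Its groups overlapped over most of their range, at a log2 fold change of 0.07 (interval −0.04 to 0.18). The other tested genes of the AHR complex and its targets, such as the chaperones Hsp90aa1 and Hsp90ab1, the repressor Ahrr, Tiparp and Nqo1, gave no call either. Of 13 tested from that list, Ahr, Arnt and Cyp1b1 included, 8 were positive and 5 negative, with a median of 0.027. The smallest p among the positive was that of Aldh3a1, an aldehyde dehydrogenase, at 15.24 normalized counts in vehicle and 20.51 in CPF (log2 fold change 0.46, adjusted p = 0.685). For the partners and coregulators of CAR and PXR, 9 of 11 estimates were positive, with a median of 0.030 and none called. In that list Ncor1, a corepressor, had the smallest p of the positive (0.08, adjusted p = 0.742).

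Of the P450s and their reductase, Cyp1b1 is described first, as the highest P450 and an AHR target. AHR with ARNT binds a core of GCGTG, and the 250 bases before the RefSeq start of Cyp1b1 are shown for that reason (GRCm38.p6, chr17:79715062-79715311, minus strand, 5′ to 3′), with the core in capitals wherever it occurs on either strand.
Cyp1b1: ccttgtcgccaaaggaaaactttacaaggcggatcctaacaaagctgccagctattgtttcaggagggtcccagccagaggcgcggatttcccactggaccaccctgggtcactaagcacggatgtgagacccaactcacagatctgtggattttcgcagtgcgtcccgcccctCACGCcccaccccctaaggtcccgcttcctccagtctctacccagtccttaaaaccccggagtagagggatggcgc
It holds 1 match, read as CACGC and thus on the other strand, which begins 76 bases before the start. At least 1 match was found in 28.2% of all 32851 RefSeq promoter windows of this length and in 14 of the 41 windows (34.1%) that 35 of the 48 genes have in that table, so the match is a description of letters and not of binding. The core of the antioxidant element, TGACNNNGC on either strand, was in 4 of these 41 windows (9.76%), those of Arnt, Cyp4f18, Gstm5 and Mgst1, and in 10.2% of all windows.

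The normalized counts of Cyp1b1 ran from 4119 to 6227 (median 4590) in vehicle and from 3798 to 5653 (median 4314) in CPF. The groups overlapped, and the highest library of each was again vehicle replicate 2 and CPF replicate 1. Its log2 fold change was −0.10 ± 0.11 (SE), with an interval of 0.794- to 1.09-fold, and it was −0.10 without those 2 libraries, −0.11 in the fit of replicates 1 to 3 and −0.10 in that of 4 to 6. The interval is unadjusted, and the estimate of Cyp1b1 was −0.03 without vehicle replicate 2 alone and −0.17 without CPF replicate 1 alone.

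Por ran from 3096 to 3553 (median 3402) in vehicle and from 3131 to 3789 (median 3582) in CPF. In both groups the library that stood apart was the lowest, and the groups overlapped. The log2 fold change was 0.09 ± 0.062 (SE, adjusted p = 0.773), or 0.969- to 1.16-fold. Of the 21 other tested genes for electron supply and heme, 13 were positive and 8 negative, with a median of 0.018 and a range of −0.11 to 0.12. The smallest p among the positive was that of Urod (0.11, adjusted p = 0.729) and among the negative that of Cpox (−0.11, adjusted p = 0.698), both enzymes of heme synthesis.

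**Figure D3:**
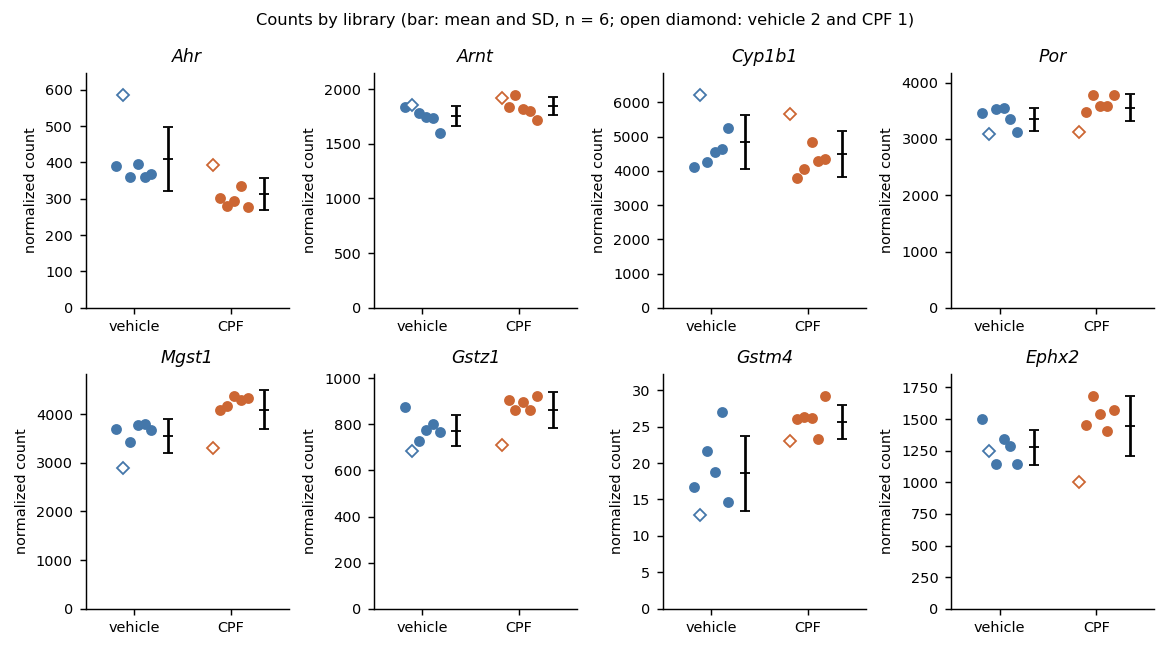
Normalized counts (vertical, linear from 0) of 8 of the genes in each of the 6 vehicle and 6 CPF libraries, with mean and SD beside them; open diamonds mark vehicle replicate 2 and CPF replicate 1. These diamonds are the highest points of their groups for Ahr and Cyp1b1 and the lowest for Por, Mgst1, Gstz1 and Gstm4.

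Cyp26b1, which breaks down retinoic acid, had the second smallest p among the rows with negative estimates. It ran from 53.03 to 86.21 (median 75.07) in vehicle and from 41.52 to 88.72 (median 57.53) in CPF, and its highest CPF value was that of CPF replicate 1. The log2 fold change was −0.26 ± 0.18 (SE, adjusted p = 0.77), with −0.46 in replicates 1 to 3 and −0.06 in replicates 4 to 6. Of the other P450s with a mean of at least 100, Cyp27a1 had 335.7 normalized counts in vehicle and 383.3 in CPF. Cyp20a1 had 252.6 and 260.8, but its medians were 243.6 and 234.9. Its value in CPF replicate 1 was 376.8, and without that library its log2 fold change was −0.09. Cyp4v3 had 223.5 and 234.5, Cyp4f13 191.3 and 187.4, and Cyp4f17 149.5 and 148.6. Cyp4f16 had 131.1 and 139.1, Cyp2ab1 123.6 and 136.8, Cyp2u1 119.4 and 116.1, and Cyp46a1 104.4 and 98.68. None of these pairs differed by the test, and the estimates of all 18 P450s tested lay between −0.26 and 0.21. Cyp7b1 reached 182.7 in CPF replicate 1 and 65.83 to 109.1 in the other CPF libraries, so that its highest value came from a library that stood apart.

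Of the glutathione transferases, Mgst1 had the highest level and was 1 of the 3 rows with an unadjusted p under 0.05. It ran from 2883 to 3801 (median 3678) in vehicle and from 3308 to 4382 (median 4226) in CPF. In CPF, 5 of the 6 libraries were above every vehicle library, and CPF replicate 1 at 3308 was the exception, just as vehicle replicate 2 at 2883 was the lowest of its group. The log2 fold change was 0.21 ± 0.082 (SE, adjusted p = 0.634), or 1.02- to 1.3-fold, and 0.21 also without both of these libraries (adjusted p = 0.055) and in each set of 3 replicates. The adipocyte marker sum was lowest of all libraries in CPF replicate 1, at 43119, and in vehicle replicate 2 it was 65210, within the range of its group. Fabp4 was the largest part of that sum, at 20541 in CPF replicate 1 and 29259 in vehicle replicate 2. Each of the 12 adipocyte markers was lowest of CPF in CPF replicate 1. Single markers differed in vehicle replicate 2: Plin1 (3786), Cidec (1610), Pparg (5302) and Prdm16 (233.6) were the lowest of vehicle. Others were the highest of vehicle there, such as Cox8b (364.5). The part of these markers in the values of Mgst1 was not tested.

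Mgst3 showed the same library at the bottom. It ran from 510.9 to 628.6 (median 542.7) in vehicle and from 379.9 to 718.2 (median 658.1) in CPF, where CPF replicate 1 was 0.81 lower on the log2 scale than the median of the other CPF libraries. With it the log2 fold change was 0.15 ± 0.13 (SE), and without both libraries that stood apart 0.27 (adjusted p = 0.0778). Mgst2 ran from 10.22 to 20.52 (median 13.63) in vehicle and from 11.48 to 27.44 (median 21.88) in CPF, and its estimate was 0.46 ± 0.23 (SE, adjusted p = 0.688), or 0.06 within replicates 1 to 3 and 0.86 within replicates 4 to 6.

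Gstz1, the zeta-class enzyme that isomerizes maleylacetoacetate in tyrosine breakdown, ran from 684.1 to 877.2 (median 771.7) in vehicle and from 709.8 to 924.9 (median 880.2) in CPF. The lowest CPF value was again that of replicate 1, and the others began at 861.6. Its log2 fold change was 0.15 ± 0.073 (SE, adjusted p = 0.681). Gstm4, a mu-class transferase expressed at a low level, ran from 12.84 to 26.95 (median 17.7) in vehicle and from 22.96 to 29.27 (median 26.13) in CPF. All 6 CPF values were above the vehicle mean of 18.58, and vehicle replicate 5 at 26.95 overlapped them. The log2 fold change of Gstm4 was 0.48 ± 0.18 (SE, adjusted p = 0.618), or 1.07- to 1.82-fold, from 10 to 31 reads per vehicle library. Gsto2, the second omega-class enzyme, ran from 23.1 to 40.84 (median 35.75) in vehicle and from 28.97 to 53.23 (median 45.33) in CPF, at 0.37 ± 0.19 (SE, adjusted p = 0.693). Its groups overlapped, and so did those of Gstp-ps, at 123.2 to 175.4 (median 152.5) in vehicle and 158.3 to 190 (median 170.3) in CPF.

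For the abundant transferases of the mu, omega and pi classes no difference was detected, and the interval of each fold change is given. Gstm1 ran from 1526 to 1783 (median 1622) in vehicle and from 1438 to 1879 (median 1702) in CPF, an interval of 0.94- to 1.14-fold. Gstm2 ran from 703.5 to 773.6 (median 712.8) and from 659.7 to 792.2 (median 767.8), or 0.955- to 1.12-fold. For both genes the vehicle libraries lay within the range of the CPF libraries, whose lowest value was that of replicate 1. Gsto1 ran from 857.4 to 1151 (median 1075) and from 943.5 to 1112 (median 1043), or 0.893- to 1.1-fold. Gstp1 ran from 710 to 855.4 (median 748.9) and from 645.1 to 932.9 (median 788), or 0.925- to 1.16-fold, with the CPF libraries spread more widely than the vehicle libraries. Gstt2, a theta-class enzyme among the negative estimates with the smallest p, ran from 23.85 to 53.86 (median 38.13) and from 24.12 to 44.88 (median 32.11), at −0.14 ± 0.2 (SE). Replicates 1 to 3 alone gave −0.51 and replicates 4 to 6 alone 0.23.

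Among the other transferases with a mean of at least 100, Gsta4, which conjugates hydroxynonenal, a lipid aldehyde, had 266.7 normalized counts in vehicle and 320.8 in CPF. It was at 169.1 in CPF replicate 1, and without both libraries that stood apart its log2 fold change was 0.36 (adjusted p = 0.123), against 0.22 with them. Gstm5 had 255.6 and 276.6, Gstt1 201.5 and 201.7, and Gstm2-ps1 100.9 and 101.3. The supply of glutathione showed no call: of 15 tested genes for its synthesis and use, 11 were positive and 4 negative, with a median of 0.034. Lancl1, a glutathione-binding protein, had the smallest p of the positive (0.17, adjusted p = 0.654), and Ggt7, a relative of the gamma-glutamyltransferases, that of the negative (−0.34, adjusted p = 0.677).

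Of the epoxide hydrolases, Ephx1 ran from 1499 to 1945 (median 1706) in vehicle and from 1709 to 1884 (median 1794) in CPF, with a log2 fold change of 0.07 ± 0.06 (SE) and the CPF values inside the vehicle range. Ephx2 ran from 1141 to 1502 (median 1265) in vehicle and from 1001 to 1686 (median 1496) in CPF. Its lowest value of all was that of CPF replicate 1, and 3 CPF libraries lay above the highest vehicle library. The estimate of Ephx2 was 0.17 ± 0.11 (SE, adjusted p = 0.742) and 0.26 without both libraries that stood apart (adjusted p = 0.104).

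Of the genes for glucuronidation and sulfation, Ugt1a6a ran from 19.22 to 46.17 (median 30.83) in vehicle and from 14.61 to 39.34 (median 21.51) in CPF, at a log2 fold change of −0.32 ± 0.26 (SE, interval 0.55- to 1.17-fold). For replicates 1 to 3 alone the value was −0.65 and for 4 to 6 alone 0.01, while Ugt1a6b, with which it shares its last exons, was at 0.04. Sult1a1 ran from 6.418 to 23.08 (median 15.79) in vehicle and from 10.44 to 28.38 (median 23.05) in CPF, at 0.45 ± 0.3 (SE, interval 0.877- to 2.12-fold). Vehicle replicate 2 and CPF replicate 1 were the lowest of their groups, and the estimate was 0.24 without the first, 0.62 without the second and 0.41 without both. Of 11 genes that supply UDP-glucuronate or the sulfate donor PAPS, 5 were positive and 6 negative (median −0.003, none called), with Bpnt1 at 0.16 (adjusted p = 0.729) and Slc35b1 at −0.19 (adjusted p = 0.709) the smallest p on either side.

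Of the steps beyond conjugation, 7 drug efflux pumps were tested, 3 positive and 4 negative, with a median of −0.024 and none called. Abcc3, which exports glucuronides, had 72.23 normalized counts in vehicle and 87.81 in CPF (log2 fold change 0.31, adjusted p = 0.654), and Abcb1a, the multidrug pump P-glycoprotein, had 177 and 152.5 (−0.22, adjusted p = 0.711). The paraoxonases are the family of Pon1, the serum enzyme that hydrolyzes the oxon of CPF and was not analysed here. Pon2 had 332.9 and 367.6 (0.14, adjusted p = 0.698) and Pon3 680.2 and 751.1 (0.13, adjusted p = 0.741), and neither passed the test.

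Over the libraries, the 44 tested rows varied by gene. The highest library was 1.2 times the lowest for Gstm2 and 1.22 times for Por and Arnt, and 4.42 times for Sult1a1. The median over the rows of the log2 difference from the vehicle mean was −0.091 to 0.119 in the vehicle libraries and −0.094 to 0.162 in the CPF libraries. CPF replicate 1, at −0.094, was the lowest of the 12, and the other 5 CPF libraries, at 0.069 to 0.162, overlapped vehicle replicate 1 at 0.119.

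**Figure D4:**
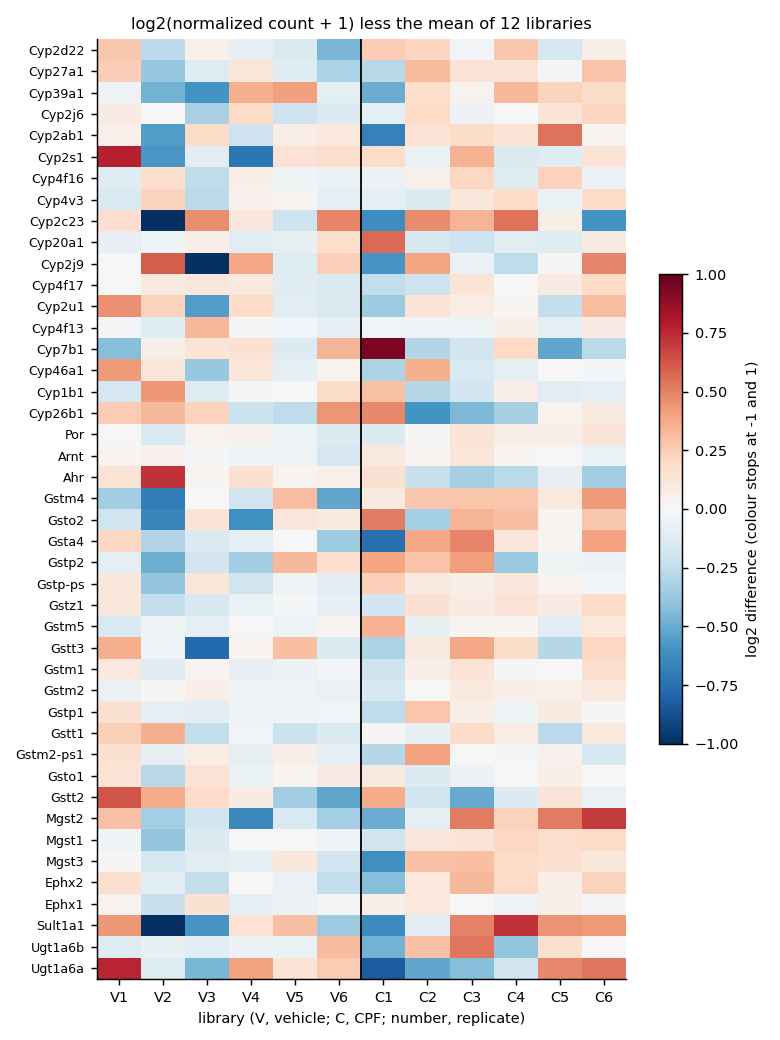
Log2(normalized count + 1) of the 44 tested rows (vertical, by family) in the 12 libraries (horizontal; V, vehicle; C, CPF), less the mean of each row; red is above and blue below that mean, and the color stops at −1 and 1. The columns of V2 and C1 differ from the others of their groups, and Ahr is the reddest in V2.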

How the data were processed

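RNA was measured in 12 libraries, 6 per group by the labels. Per the labels and methods, the authors prepared strand-specific libraries, trimmed reads with Trimmomatic, aligned them with HISAT2 to GRCm38, counted reads in exons with htseq-count (stranded reverse) and normalized with DESeq2. Not given in the sources used here are the versions and the rule by which genes were kept. The deposited signal values are these normalized counts. All were whole multiples of the value of 1 read within 0.01 read (100% of values), so reads were recovered. The authors' averages, fold changes, p-values, 12 columns of ratios per library and 2 further gene lists were not used.

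Genes with a mean of at least 10 (13531) were fitted with limma 3.58.1 (R 4.3.3; trend, robust) on log2(value + 1), with no covariates, two-sided, adjusted by Benjamini-Hochberg. The log2 scale with a pseudocount understates changes of low genes. Alternatives were the recovered reads in edgeR 4.0.16 and in DESeq2 1.42.0, TMM rescaling, no filter or a mean of at least 50, a pseudocount of 0.1 or 10, weights for libraries, a replicate block, the set of replicates (1 to 3 or 4 to 6) as a covariate or fitted alone, and libraries left out. Scripts were tested on simulated data. Exon lengths, coding sequences and shared 50-base stretches came from GENCODE M21 (GRCm38, later than the authors' annotation), which holds all 48 rows, and promoters from RefSeq. Values were named for 14 genes of set interest where they had a row, the 12 highest per kb, the 5 of smallest p on either side and any that passed. Members with means of at least 100 were given by their means, and for each list of other genes the smallest p in each direction. Cyp7b1, Cyp20a1, Gsta4, Ugt1a6b and single cell type markers were also described after their values were seen. The genes and lists were chosen with earlier results of these data known. The results of 2 genes of these lists are not reported here.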

Additional observations from a re-analysis of the deposited data

Results flagged for a closer look

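In 42 groups of 6 libraries (21 named genes, 2 groups each) the highest or lowest value was compared with the rest by Dixon's ratio at its 95% critical value, which chance exceeds in about 1 in 20 groups, and 5 values exceeded it. Ahr was highest in vehicle replicate 2, at 586.6 normalized counts, where the next was 395.1. Gstp1 was highest in vehicle replicate 1, at 855.4, where the next was 755.8. CPF replicate 1 was lowest for Gstz1 at 709.8 (next 861.6), for Mgst1 at 3308 (next 4093) and for Mgst3 at 379.9 (next 631.2). Of the 5 values, 4 are thus from the 2 libraries that stood apart on the first principal component.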

How the results depend on the processing

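In 24 of 25 alternatives 0 of these rows passed the test. Without vehicle replicate 2 and CPF replicate 1, 1 did, which was Ahr (−0.33, adjusted p = 0.0375), and the cause was not tested. With a mean of at least 100 in place of 10, 27 rows in place of 44 counted as expressed. With each library left out in turn, 0 rows passed each time. For the 21 named genes 508 of 519 alternative log2 fold changes kept direction and side of the threshold, and 10 changed sign. These were near 0 for Gstm1 (−0.001) and Gstm2 (−0.03) within replicates 1 to 3, Gsto1 (0.01) and Ugt1a6a (0.01) within replicates 4 to 6, Gsto1 with libraries left out (−0.07 to 0.02) and Gstp1 with libraries left out (−0.001 to 0.10). Gstt2 turned to 0.23 within replicates 4 to 6. The cause was not tested. Of all genes tested, limma called 0, edgeR 0 and DESeq2 6, all lower, none of them among these rows, and library weights called 22. Same-numbered libraries deviated with correlations of −0.213 to 0.256, so the numbers were not taken as pairs. With the replicate block, 0 rows were called and the median stayed at 0.070. Low rows rest on few reads, such as 5 to 24 for Sult1a1 and 16 to 42 for Ugt1a6a in each vehicle library.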
